A study of Homo sapiens with 12 samples.

Results

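The 8 genes described here encode enzymes of the pentose phosphate pathway (PGLS, PGD, RPIA, RPE, TKT and TALDO1) and cytosolic enzymes that also make NADPH (ME1 and IDH1). They were chosen by name for their place in metabolism, with earlier results of these data known. All 8 were found among the 57736 genes of the count files, where 27326 genes had any count. The study measured 3′ RNA-seq in HepG2 cells, a human liver cancer line, and Ls174 cells, a line from a colon carcinoma. Each line was sampled as 3 untreated control and 3 treated cultures, 12 libraries in all, and every sample was of wild-type genotype and taken at 24 h. Per the sample labels the treated cells received 0.7 mg/ml of HME (the methods of the study state a slightly higher dose), a methanol extract of the red seaweed Hypnea musciformis. Each tissue was therefore represented by 1 cell line. Both lines were exposed to an extract of many compounds at a dose that slows their growth. The study also reports a loss of viable cells and a rise in late apoptotic and necrotic cells in both lines with HME. The part of this cell death in the HME changes given below was not tested.

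The pentose phosphate pathway branches from glycolysis at glucose phosphate. Its oxidative branch yields NADPH and a pentose phosphate, and its non-oxidative branch interconverts pentose phosphates with glycolytic sugars, so that cells can draw ribose for nucleotides or reducing power for biosynthesis. NADPH is used by glutathione and thioredoxin reductases to repair oxidative damage, and by the fatty acid and cholesterol synthesis that liver cells carry out at a high rate. PGD, TKT, TALDO1 and ME1 are known targets of NRF2, the transcription factor that is released from KEAP1 when cells meet oxidants or electrophiles.

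The library totals ran from 1790841 to 3656662 counts, and 13885 to 19354 genes had a count in a library. Control 2 of HepG2 and control 1 of Ls174 lay apart from the other controls of their line for several of the 8 genes, and values without them are given beside the calls they changed. The summed level of 7 liver markers was 15140 to 18840 normalised counts per 1e6 (CPM) in HepG2 controls, 10520 to 12080 in HME-treated HepG2 cells and at most 118.5 in Ls174 cells. The 7 colon markers summed to 182.4 to 338.7 CPM in Ls174 libraries and 69.2 to 209.2 in HepG2 libraries, with CEACAM5 and MUC2 at 0 in HepG2 and KRT20 at 0 in Ls174 controls. Among markers of other cells, 5 mesenchymal genes summed to 960.8 CPM in HME replicate 2 of HepG2 and to at most 10.2 in every other library. The 5 blood markers summed to 90.9 to 551.6 CPM in HepG2, with PTPRC, CD3E and HBB at 0. In HepG2 controls CD79A was also at 0, so the whole sum there was LYZ. In Ls174 the blood markers summed to at most 4.61, while the 3 endothelial markers measured summed to at most 4.36 in any library.

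The promoter windows below are shown because they hold the core of the antioxidant response element, the DNA element that NRF2 binds. The letters searched were TGACNNNGC, on both strands, from 250 bases before to 50 bases after each gene's start in the RefSeq promoters of GRCh38.p14. All 8 genes were matched, with 9 promoters since IDH1 has 2, and 4 of the 9 (44.4%) held a match beside 4687 of 35116 promoters (13.3%) in the whole table. Each line gives 29 bases, 5′ to 3′ on the gene's own strand, with the match in capitals.
ME1, chr6:83431170-83431198, minus strand: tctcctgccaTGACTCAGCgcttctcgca
PGD, chr1:10398853-10398881, plus strand: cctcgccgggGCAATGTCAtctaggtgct
IDH1, chr2:208255196-208255224, minus strand: cccctctcgcTGACTCCGCccatcccacg
RPE, chr2:210002477-210002505, plus strand: ggcggacggcTGACAGCGCcccaccccag
The matches began at -137 in ME1, -201 in PGD, -143 in IDH1 and -151 in RPE, counted from the annotated start, and the PGD match lies on the opposite strand. ME1 held a further match at 11 bases after its start. The ME1 match also contains TGACTCA, the AP-1 element, which with its reverse complement was found in 4.95% of all promoters and inside a core match in 0.56%. No match was found in the windows of TKT, TALDO1, RPIA and PGLS. These are letter matches in a fixed window, and binding was not measured.

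HME and the transfer enzymes were compared first. In HepG2 cells, TKT and TALDO1, which link the pathway back to glycolysis, rose with HME by 1.63-fold and 1.66-fold at the thresholds of the study (p under 0.05 before adjustment, with a change past 0.58 on the log2 scale). In Ls174 cells TALDO1 rose by 1.68-fold and ME1, the cytosolic malic enzyme, by 2.38-fold. By edgeR none of the 7 genes tested in HepG2 or the 8 tested in Ls174 passed an adjusted p of 0.05. DESeq2 passed TALDO1 and ME1 in Ls174. ME1 was too low to be tested in HepG2. The oxidative enzymes PGLS and PGD, the pentose interconverting enzymes RPIA and RPE, and IDH1 were not called by edgeR with all libraries, and DESeq2 called PGLS lower in HepG2.

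**Figure D1:**
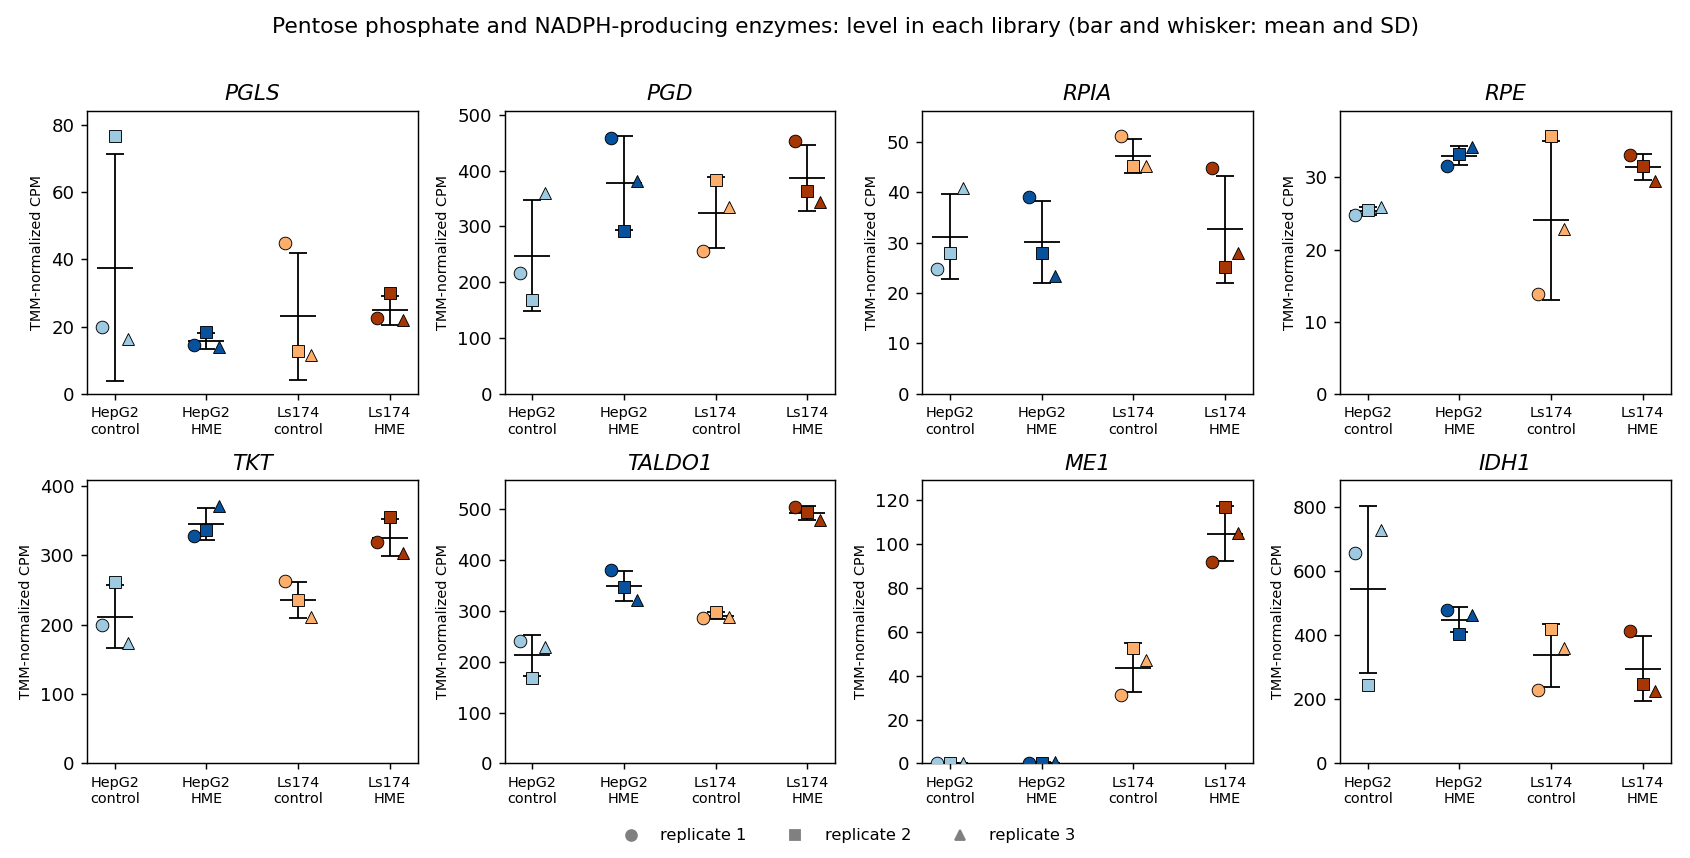
Level of each enzyme in each library, in TMM-normalized CPM on a linear axis from 0, where symbols are replicates and the bar and whisker are the mean and SD of 3 libraries. TALDO1 and TKT are higher in every HME library than in every control library of the same line, ME1 is near 0 in HepG2, and 1 control library of each line is far above the others for PGLS.

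TALDO1, transaldolase, moves a dihydroxyacetone unit between sugar phosphates. In HepG2 controls it was at 240.4, 166.9 and 228.7 CPM, and with HME at 379.1, 346.1 and 320.7 CPM. All 3 treated libraries lay above all 3 controls. This was a log2 fold change of 0.73 (SE 0.29, edgeR adjusted p = 0.185). In Ls174 controls it was at 286.2, 298.0 and 287.0 CPM, and with HME at 504.3, 493.2 and 477.1 CPM. The 3 libraries of each Ls174 group lay close together, and the groups did not overlap. TALDO1 thus changed by 0.75 on the log2 scale in Ls174 (SE 0.17, edgeR adjusted p = 0.0989). The Ls174 call held in 13 of 13 alternative settings, with log2 fold changes of 0.72 to 0.78, and the HepG2 call in 5 of 13. Without Ls174 control 1 the Ls174 adjusted p was 0.00758 by edgeR. With any other Ls174 library left out it was 0.24 to 0.452.

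TKT, transketolase, moves a glycolaldehyde unit with thiamine diphosphate as its cofactor. Its HepG2 controls were at 199.5, 261.6 and 173.8 CPM, and its treated libraries at 328.0, 336.9 and 371.1 CPM. The groups did not overlap, and control 2 was the highest of the controls. TKT changed by 0.71 on the log2 scale (SE 0.32, 95% interval 0.00 to 1.41), with an edgeR adjusted p of 0.225. The HepG2 call of TKT held in 4 of 13 alternatives. Leaving out 1 control moved the change to 0.64 without control 1 and 0.57 without control 3, where the call was lost, and to 0.96 without control 2 (edgeR adjusted p = 0.0359). In Ls174, TKT was at 262.6, 235.6 and 210.7 CPM in controls and at 318.8, 355.2 and 303.3 CPM with HME. Again every treated library was above every control. The Ls174 change of 0.46 on the log2 scale (SE 0.19, edgeR adjusted p = 0.352) passed the limit on p before adjustment but not the limit on fold, and TKT was not called in this line. Without Ls174 control 1 it was 0.55 (edgeR adjusted p = 0.0499). With any other Ls174 library left out the edgeR adjusted p was 0.459 to 0.775.

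The HepG2 calls changed when single libraries were left out. Leaving out any 1 treated library left 0 of 7 genes called. The log2 fold changes of TALDO1 and TKT stayed above 0.58 in these fits, and the calls were lost on the unadjusted p alone. The share of all genes called was not counted for any left-out library. Whether the lost calls were particular to these genes was therefore not tested. Without control 3 neither TKT nor TALDO1 was called, and PGD and PGLS were called in their place. Without control 1 TALDO1 and PGLS were called and TKT was not. Without HME replicate 2, the library with the mesenchymal transcripts, the log2 fold changes were 0.76 for TALDO1 and 0.74 for TKT, close to the values with it. The range of the liver marker sums was also lower in HME-treated than in control HepG2 cells, as given above, and its part in the values of TKT and TALDO1 was not tested. In bulk RNA, fewer cells of a kind and less RNA per cell cannot be told apart.

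ME1 oxidises malate to pyruvate in the cytosol and supplies NADPH for lipid synthesis. In Ls174 controls it was at 31.0, 52.8 and 47.4 CPM (63, 170 and 185 counts), and with HME at 91.8, 117.0 and 105.2 CPM (252, 329 and 320 counts). The lowest treated library lay well above the highest control. The log2 fold change was 1.25 (SE 0.24, 95% interval 0.71 to 1.79, edgeR adjusted p = 0.0512). It was the largest change among the 8 genes in Ls174, called in 13 of 13 alternatives with log2 fold changes of 1.07 to 1.40. Without Ls174 control 1 it was 1.07 (edgeR adjusted p = 0.000986). With any other Ls174 library left out the edgeR adjusted p was 0.138 to 0.344. In HepG2, ME1 had 0, 0 and 1 counts in controls and 0, 1 and 1 counts with HME. Both groups were under a floor of 3 counts per library, so no HME effect on ME1 could be measured in HepG2 at this depth. Its promoter is the one shown above whose match holds the AP-1 letters.

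PGD, which oxidises phosphogluconate and makes NADPH in the oxidative branch, was at 215.6, 168.2 and 359.3 CPM in HepG2 controls and at 459.4, 292.0 and 381.4 CPM with HME. The groups overlapped through control 3, and the log2 fold change of 0.63 had a 95% interval of -0.17 to 1.44 (edgeR adjusted p = 0.325). In Ls174, PGD was at 255.7, 382.4 and 335.4 CPM in controls and 453.6, 363.1 and 344.0 CPM with HME. PGD changed there by 0.25 on the log2 scale (95% interval -0.25 to 0.75, edgeR adjusted p = 0.648). Both intervals include 0, and both reach the size of the TALDO1 change in HepG2.

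PGLS, the lactonase that acts before PGD, had the widest spread among control libraries of the genes above the floor. In HepG2 controls it was at 19.9, 76.6 and 16.2 CPM, and with HME at 14.6, 18.4 and 13.8 CPM. Control 2 alone was several times above the other 2 controls, which were close to the treated libraries. PGLS gave a log2 fold change of -1.26 (SE 0.60, edgeR adjusted p = 0.249) with all libraries and of -0.14 (edgeR adjusted p = 0.824) without control 2. In Ls174 controls PGLS was at 44.8, 12.7 and 11.5 CPM, and with HME at 22.6, 29.9 and 22.0 CPM. Here control 1 stood above the others, and the log2 fold change was 0.13 (edgeR adjusted p = 0.928) with it and 1.04 (edgeR adjusted p = 0.0159) without it. The size of the PGLS change in HepG2 and its call in Ls174 thus turned on 1 control library of each line.

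RPIA, the ribose phosphate isomerase that makes the precursor of nucleotides, was at 24.7, 28.0 and 40.8 CPM in HepG2 controls and 39.2, 27.9 and 23.4 CPM with HME (log2 fold change -0.03, 95% interval -0.79 to 0.74). In Ls174 it was at 51.1, 45.3 and 45.3 CPM in controls and 44.8, 25.2 and 27.9 CPM with HME. All treated Ls174 libraries lay below all controls, but treated replicate 1 was close to them. The change was -0.54 on the log2 scale (SE 0.26, edgeR adjusted p = 0.409), and -0.83 without treated replicate 1, where RPIA was called lower. RPE, the epimerase that feeds transketolase, was at 24.7, 25.5 and 25.9 CPM in HepG2 controls and 31.7, 33.2 and 34.2 CPM with HME. The groups did not overlap, with a log2 fold change of 0.39 (edgeR adjusted p = 0.447). In Ls174, RPE ranged from 13.8 to 35.7 CPM in controls and from 29.6 to 33.2 CPM with HME (log2 fold change 0.37, edgeR adjusted p = 0.651). It was 0.12 without control 1 and 0.76 without control 2, where RPE was called higher at the thresholds of the study.

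IDH1, the cytosolic isocitrate dehydrogenase, was at 655.8, 245.4 and 727.0 CPM in HepG2 controls and 478.0, 404.1 and 463.6 CPM with HME. Control 2 was the lowest and the other controls the highest of the 6 libraries. IDH1 differed by -0.24 on the log2 scale (95% interval -1.13 to 0.64, edgeR adjusted p = 0.745), and by -0.56 without control 2 (edgeR adjusted p = 0.156). In Ls174 it was at 229.7, 420.9 and 360.2 CPM in controls and 413.5, 248.9 and 225.7 CPM with HME, with a log2 fold change of -0.19 (95% interval -0.88 to 0.50, edgeR adjusted p = 0.811). IDH1 was not shown to differ in either line.

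**Figure D2:**
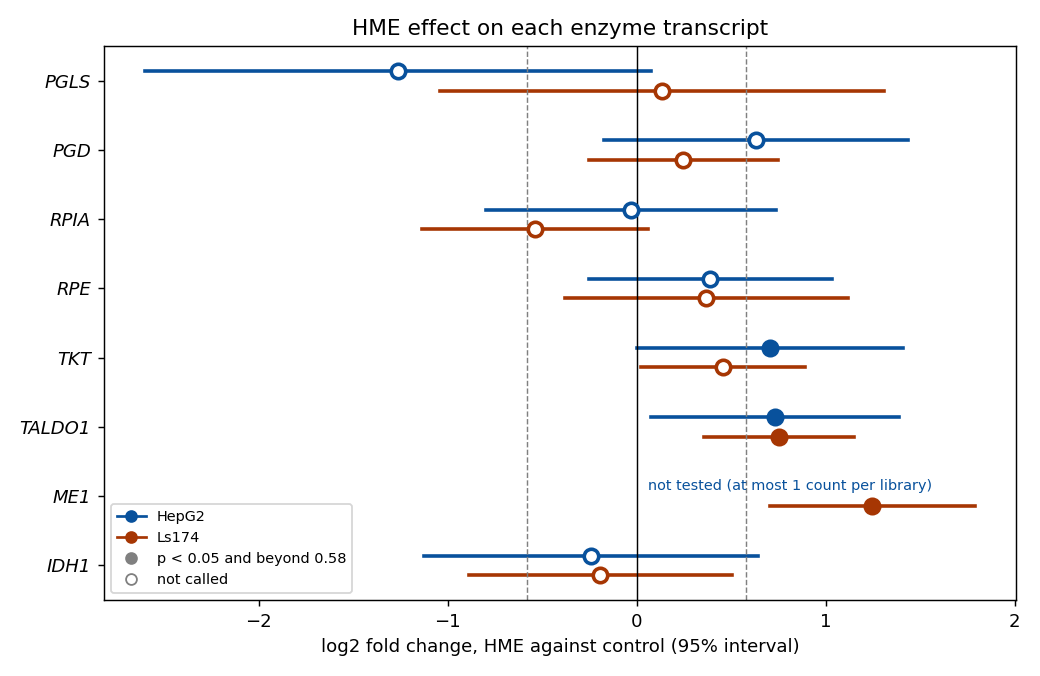
Log2 fold change of each enzyme, HME against control, with its 95% interval in HepG2 (blue) and Ls174 (orange); filled points passed p under 0.05 and the dashed limit of 0.58. TKT is filled in HepG2, TALDO1 in both lines and ME1 in Ls174, while the intervals of PGLS, PGD, RPIA, RPE and IDH1 cross 0.

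Over the genes tested, HME gave calls for 2 of 7 of these genes in HepG2, both higher, beside 22.2% of all tested genes, of which 11.3% of tested genes were higher. At an adjusted p under 0.05 the count was 0 of 7 by edgeR beside 3.31% of all genes and 0 of 7 by DESeq2 beside 9.14%, and at an unadjusted p under 0.05 it was 2 by edgeR and 3 by DESeq2. The groups did not overlap for 3 of 7 beside 30.8%. In Ls174, 2 of 8 were called, both higher, beside 12% of all genes and 4.11% that were higher. At an adjusted p under 0.05 the count was 0 of 8 by edgeR beside 1.18% of all genes and 2 of 8 by DESeq2 (TALDO1 and ME1) beside 4.11%, and 3 of 8 had an unadjusted p under 0.05 by edgeR. Without Ls174 control 1, 4 of 8 passed the adjusted p by edgeR, and 0 of 8 with any other Ls174 library left out. The share of all genes was not counted for left-out libraries or for the unadjusted p alone. Those counts therefore have no background to be judged by. The groups did not overlap for 4 of 8 beside 23.8%. With so few genes the shares in HepG2 were not far from the background. The genes were chosen with earlier results of these data known, so the shares in both lines are descriptions.

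The median log2 fold change of the tested genes was 0.39 in HepG2, where 4 of 7 were positive, and 0.31 in Ls174, where 6 of 8 were positive. The medians of all tested genes were -0.04 and -0.00. Without TMM scaling the HepG2 median of all genes was -0.20, and the log2 fold changes of TKT and TALDO1 were then 0.60 and 0.57. It also moved the median of all genes from -0.04 to 0.17 in the comparison of the untreated lines.

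To ask whether HME acted differently on these genes in the 2 lines, the difference of the effects was tested. ME1 was at the floor in HepG2 and is left out, so 7 genes could be compared. Of these, 0 were called at either rule by edgeR or by DESeq2, and 0 had an unadjusted p under 0.05, beside 13.2% of all genes at the thresholds of the study and 0.644% at an adjusted p under 0.05. The difference for TALDO1 was 0.04 on the log2 scale (95% interval -0.68 to 0.76), and for TKT -0.24 (95% interval -0.98 to 0.50). Both intervals include 0 and reach about 0.50 on the log2 scale in either direction, so a difference of that size between the lines could have gone undetected. The difference for PGLS was 1.37 (95% interval -0.41 to 3.15, edgeR adjusted p = 0.519).

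Between the untreated lines, ME1 stood alone. It was at 43.7 CPM ± 11.4 (SD, n = 3) in Ls174 controls and at most 1 count per library in HepG2. This made ME1 at least 23.4-fold higher in Ls174 against a floor of 1.87 CPM. With HME it was at least 58.1-fold higher in Ls174 against a floor of 1.80 CPM. The untreated controls used here are the same libraries as in the HME comparisons. ME1 was the 1 of 8 genes called, at both rules, beside 35.0% and 23.5% of all tested genes. ME1 passed the count filter only through the Ls174 controls, where it is high. Its call is therefore a description and adds no support to the counts above. The control groups did not overlap for 3 of 8, ME1, RPIA and TALDO1, beside 42.6%, each higher in Ls174.

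RPIA was at 31.2 CPM ± 8.49 in HepG2 controls and 47.3 CPM ± 3.36 in Ls174 controls (log2 fold change 0.57, edgeR adjusted p = 0.266). TALDO1 was at 212.0 CPM ± 39.5 and 290.4 CPM ± 6.59 (log2 fold change 0.42, edgeR adjusted p = 0.37). IDH1 was at 542.8 CPM ± 259.9 and 336.9 CPM ± 97.7 (log2 fold change -0.71, edgeR adjusted p = 0.313), and without HepG2 control 2 the log2 fold change was -1.06 (edgeR adjusted p = 0.0499). Each ± is an SD over 3 libraries. Ranked by group mean, TALDO1 ran from HME-treated Ls174 (491.5 CPM) through HME-treated HepG2 (348.6 CPM) and Ls174 controls (290.4 CPM) to HepG2 controls (212.0 CPM), with no overlap between neighbours.

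None of the other genes of the pathway was called higher. Of 12 further pentose phosphate and ribose genes, 10 records were tested in each line, with 0 higher and 3 lower in HepG2, beside 11.3% and 10.9% of all tested genes, and 0 called in Ls174, beside 12%. Their median log2 fold change was -0.64 in HepG2 and -0.08 in Ls174. H6PD, the enzyme of the same kind of route in the endoplasmic reticulum, fell from 27.6 CPM ± 15.1 to 5.57 CPM ± 0.78 in HepG2 (log2 fold change -2.28, edgeR adjusted p = 0.0348). RBKS, ribokinase, fell from 20.5 CPM ± 6.43 to 7.04 CPM ± 1.86 (log2 fold change -1.50, edgeR adjusted p = 0.0682). The third was SHPK, which phosphorylates sedoheptulose, under 1 of its 2 identifiers (log2 fold change -1.16, edgeR adjusted p = 0.215), and its reads may be split between them.

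The next list held 13 other genes, for NADPH-producing enzymes, NAD kinases and neighbouring folate enzymes. In HepG2, 2 of 11 tested were higher and 3 lower, beside 11.3% and 10.9% of all tested genes. In Ls174, 2 of 12 were higher and 0 lower, beside 4.11% and 7.85%. The higher pair, the folate genes MTHFD2 and MTHFD1L, was the same in both lines, and NADPH was not measured. MTHFD2, a mitochondrial folate enzyme, rose from 54.1 CPM ± 10.0 to 163.5 CPM ± 22.9 in HepG2 (log2 fold change 1.61, edgeR adjusted p = 0.0208) and by 1.02 on the log2 scale in Ls174 (edgeR adjusted p = 0.108). MTHFD1L, which acts next to it in the mitochondrial folate pathway, rose by 1.30 in HepG2 and 0.64 in Ls174 on the log2 scale. NADK2, the mitochondrial NAD kinase, fell by 1.15 on the log2 scale in HepG2. ALDH1L1, a cytosolic folate dehydrogenase, fell by 1.66 in HepG2 but by 0.07 without control 2, where the call was lost.

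The enzymes that use NADPH moved in both directions. In HepG2, 7 of 17 were higher and 2 lower, beside 11.3% and 10.9% of all tested genes. In Ls174, 5 of 17 were higher and 4 lower, beside 4.11% and 7.85%. TXNRD1, thioredoxin reductase, rose by 3.24 on the log2 scale in HepG2 (edgeR adjusted p = 0.0196) and by 0.61 in Ls174 (edgeR adjusted p = 0.216), where 9 of 13 alternatives called it. AKR1B10, an aldo-keto reductase, rose by 2.96 in HepG2 and 2.58 in Ls174, with edgeR adjusted p of 0.0083 and 0.0302. PTGR1, a prostaglandin reductase, rose by 2.06 and 1.12.

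NRF2 (NFE2L2), KEAP1 and 8 targets outside these lists gave 9 of 10 higher and 0 lower in HepG2, beside 11.3% and 10.9% of all tested genes, with 6 at an adjusted p under 0.05 beside 3.31%. In Ls174, 7 of 10 were higher and 0 lower, beside 4.11% and 7.85%, with 1 at an adjusted p under 0.05 beside 1.18%. Their median log2 fold change was 2.07 in HepG2 and 1.02 in Ls174, against 0.39 for the 7 tested and 0.31 for the 8 tested of the genes described here. HMOX1, heme oxygenase, rose by 3.14 in HepG2 and 1.60 in Ls174. SRXN1, sulfiredoxin, rose by 2.90 and 1.33, and GCLC, the catalytic subunit for glutathione synthesis, by 2.48 and 1.02. OSGIN1 rose by 2.62 in HepG2, while in Ls174 its controls, at 1.25 CPM ± 1.44, were about at the floor and no fold is given. These are log2 fold changes at the thresholds of the study. The wider lists were chosen with earlier results of these data known, so their shares of calls are descriptions. HMOX1 was at 2.52 CPM ± 1.76 in Ls174 controls and 8.17 CPM ± 2.62 with HME, and its call there held in 9 of 12 alternatives. The Ls174 count of 7 and median of 1.02 include OSGIN1, about at the floor in controls, and HMOX1, little above it.

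**Figure D3:**
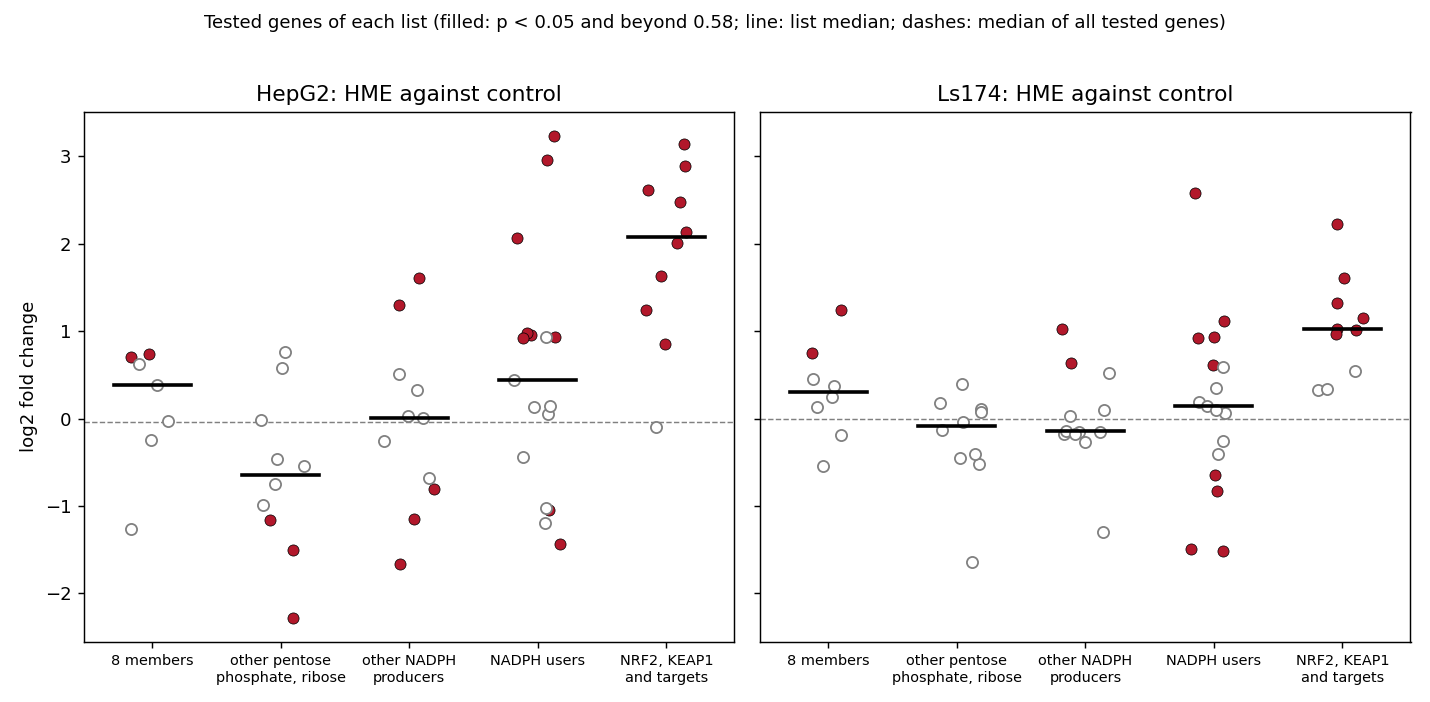
Log2 fold change with HME of every tested gene in the 8-gene group and the 4 wider lists, HepG2 on the left and Ls174 on the right; filled points passed p under 0.05 and 0.58, the black line is the list median and the dashes the median of all tested genes. The NRF2 list lies highest in both lines, with medians of 2.07 and 1.02, and the other pentose phosphate and ribose genes lie lowest in HepG2, at -0.64.

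The variation of the 8 genes across libraries was compared after centring log2 CPM within each line. TKT and TALDO1 had a Pearson r of 0.718 over 12 libraries, and TALDO1 and PGD of 0.698. TALDO1 and ME1 had an r of 0.935 over the 6 Ls174 libraries. PGLS had an r of -0.747 with IDH1 and -0.723 with PGD, but of 0.108 with TKT. The libraries share HME treatment and their depth, so these are descriptions. Among the 13039 genes compared, those most like TALDO1 were SQSTM1 (r = 0.974), PLIN2 (0.968) and S100P (0.962), and those most like TKT were GDF15 (0.959), MTHFD1L (0.953) and GCLM (0.947). For ME1 they were AP4S1 (0.953), MAU2 (0.899) and CALCOCO2 (0.897). Since ME1 was at the floor in HepG2, its own variation lay mostly in the 6 Ls174 libraries. The r was still taken over all 12 libraries, where a gene that varies in HepG2 scores lower.

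**Figure D4:**
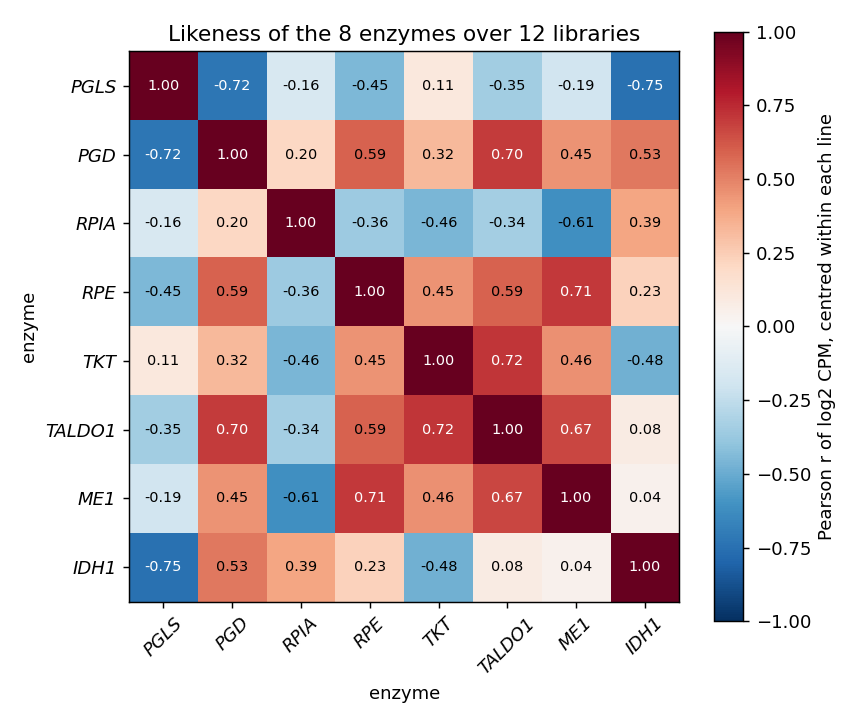
Pearson r of log2 CPM, centred within each line, for each pair of the 8 enzymes over 12 libraries; red is positive and blue negative. TALDO1 is positively related to TKT, PGD, RPE and ME1, and PGLS is negatively related to PGD and IDH1 but not to TKT.

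The counts came almost wholly from the last 3′ region of each gene. On GRCh37, ME1 (chr6, 83920121 to 84140770) was counted in 1 region, 83919911 to 83921642, of which 87.9% is annotated 3′ UTR. RPIA (chr2, 88991191 to 89050446) also had a single region, 89049596 to 89050649. The last region held 99.91% of PGD counts (chr1, 10479807 to 10480398), 98.05% of IDH1 (chr2, 209100754 to 209101802), 97.42% of RPE (chr2, 210884393 to 210886497), 96.57% of TKT (chr3, 53258526 to 53259947) and 92.42% of PGLS (chr19, 17631753 to 17632294). TALDO1 was the exception, with 85.3% in its last region (chr11, 764813 to 765221) and 14.3% in a coding region of 20 bases (764414 to 764433). That share ranged from 6.36% to 17.9% over libraries, with the lowest in Ls174 control 1. IDH1 had 11.9% of its counts in an intronic region (209111909 to 209112105) in HepG2 control 2 and at most 1.85% in any other library. The RPE region overlaps KANSL1L on the opposite strand, and since the strand setting of the counting is not given in the sources used here, reads of the 2 genes may not be separate.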

How the data were processed

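The data were 3′ mRNA libraries (QuantSeq, Ion Torrent) from HepG2 and Ls174 cells, with 3 biological replicates for each of control and HME. The deposited values were raw read counts per 3′ region, made by the authors on hg19 (GRCh37) with metaseqR2. The submitters' processing notes list Trimmomatic, HISAT2 and Bowtie2, and versions, strand setting and the treatment of multi-mapped reads are not given in the sources used here. Counts of the 144910 regions of each table were summed by gene.

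Each line was fitted by itself in edgeR 4.0.16 (R 4.3.3, limma 3.58.1) with TMM, filterByExpr and the quasi-likelihood test, the controls were compared between lines, and the line by treatment term was fitted over 12 libraries. Calls used the thresholds of the study (unadjusted p under 0.05 and log2 fold change beyond 0.58) and, beside them, Benjamini-Hochberg adjusted p under 0.05 over all tested genes (11343, 11319, 11907 and 13040). CPM used 1 TMM scaling over the 12 libraries, the floor was 3 counts per library, and the 95% interval came from the fit. The study tested genes with metaseqR2 and names a binomial test, and it does not state how replicate spread entered that test. DESeq2 1.42.0 and other scalings, filters and left-out libraries were alternatives. The script was tested on simulated data.

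The 8 genes and the lists were chosen with earlier results of these data known. Named genes were the 8, at most 4 per wider list with the largest absolute change among those called in either line, and the 3 genes with the highest r for each called gene. The values of 1 gene that this rule names are not reported here. Gene positions are from GENCODE on GRCh37, promoters from RefSeq on GRCh38.p14. Replicates were not near copies (chi-square per degree of freedom 4.44 to 54.1 over 12 pairs). Totals of 1790841 to 3656662 counts limit genes such as PGLS, RPIA and RPE, with 23 to 177 counts.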

Additional observations from a re-analysis of the deposited data

How the results depend on the processing

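At the thresholds of the study, 2 of 7 genes in HepG2 became 1 of 7 (PGLS in place of TKT and TALDO1) with library size alone and with upper quartile scaling, 1 of 8 without a filter (PGLS), 0 with the replicate block, 0 at the adjusted p, and 0 to 2 when 1 library was left out (with PGLS or PGD among the called without control 1 or control 3). The adjusted count of 0 in HepG2 ranged from 0 to 1 (TKT, without control 2). In Ls174 the 2 called genes became 0 at the adjusted p, whose count of 0 became 2 with DESeq2, 1 without a filter, 1 with at least 10 counts in every sample, and 0 to 4 when 1 library was left out (4 without control 1). At the thresholds of the study it was 2 to 3, with PGLS, RPE or RPIA added without control 1, control 2 or HME replicate 1. Between lines the count of 1 became 0 with at least 10 counts in every sample, which removes ME1, and ranged from 1 to 2 at either rule (IDH1 added without HepG2 control 2). The interaction count of 0 became 1 (PGLS) without a filter. It ranged from 0 to 1 when 1 library was left out (without Ls174 control 1). For the scalings, filters, replicate block and left-out libraries the share of all genes was not counted beside these.

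Some log2 fold changes that were not called changed sign. RPIA in HepG2 was 0.002 with at least 10 counts and -0.237 to 0.195 with 1 library left out, IDH1 in HepG2 -0.555 to 0.014, PGLS in Ls174 -0.201 to 1.04, PGLS between lines -1.658 to 0.294, and TKT between lines -0.026 to 0.314. RPE between lines was 0.129 with library size alone, 0.009 with upper quartile and -0.513 to 0.174 with 1 library left out. The RPE interaction was 0.067, 0.078, 0.013 and 0.084 with library size alone, upper quartile, no filter and the replicate block, and -0.274 to 0.385 with 1 library left out. The IDH1 interaction was -0.07 with the replicate block and -0.198 to 0.455, the TALDO1 interaction -0.016 to 0.205 and ALDH1L1 in Ls174 -0.224 to 0.322 with 1 library left out. The causes were not tested. For the 8 genes under all alternatives, 362 log2 fold changes kept direction and call, 32 changed direction, 13 gained and 17 lost a call.

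Replicate numbers did not pair the samples (r of same-numbered deviations -0.15, 0.073 and -0.116 in HepG2, and -0.039, 0.006 and -0.06 in Ls174), and 1 HepG2 and 0 Ls174 libraries correlated best with their own number.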

Other observations

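For the NRF2 list, the line by treatment term was called at the thresholds of the study for 4 of 10 genes, all with a smaller effect in Ls174, beside 13.2% of all genes, and for 0 at an adjusted p under 0.05 by edgeR, with a list median of -1.07 on the log2 scale. HMOX1, low in Ls174 controls, was among these 4 genes, and OSGIN1, about at the floor there, entered the list median. The median of the line by treatment term was -0.007 over the 7 pentose phosphate and NADPH-producing genes above the floor in both lines. It was 0.04 over all 13040 genes.

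The same 2 control libraries were at the extreme for PGLS and IDH1. In HepG2 control 2, PGLS was the highest and IDH1 the lowest of the 6 libraries of the line. In Ls174 control 1, PGLS was the highest at 44.8 CPM, and IDH1 at 229.7 CPM was the lowest of the controls but not lower than treated replicate 3 at 225.7 CPM. HepG2 control 2 was also the library with 11.9% of IDH1 counts in an intronic region.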
